A study of Mus musculus with 6 samples.

Results

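Toll-like receptors are membrane proteins that sense microbial molecules. This account covers 8 genes in mouse dermal fibroblasts treated with IL-1: the receptors Tlr1, Tlr2, Tlr3, Tlr4, Tlr5 and Tlr6, and the co-receptors Cd14 and Ly96. Members were the non-control probes whose gene name in the scanner files is one of these symbols, which gave 10 probes out of 41174 and 8 gene names out of 28100. Tlr3 and Tlr4 each had 2 probes and the other 6 genes had 1 each. Cultured fibroblasts of strain C57BL/6 received IL-1 at 20 ng/ml for 1, 2 or 4 h, and untreated fibroblasts of the same strain (0 h) were the reference. The form of IL-1, the age and sex of the mice and the passage of the cells are not stated. Each of the 6 2-colour arrays compared treated RNA of 1 time point with untreated RNA, and a time point had 2 arrays with the dyes swapped, the treated RNA in Cy5 (red) on replicate 1 and in Cy3 (green) on replicate 2. The arrays of a time point were therefore averaged to 1 sample, their difference being technical, and whether the 3 time points were separate cultures is not stated. The p-values below measure no spread beyond these samples. They come from a limma fit in which each probe's variance is moderated, that is, drawn toward the variance of all tested probes.

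A Toll-like receptor binds its ligand through leucine-rich repeats and signals through a cytoplasmic TIR domain, a domain it shares with the IL-1 receptor. Both receptor classes recruit the adaptor MyD88 and IRAK kinases and lead to NF-kB activation. TLR2 works as a pair with TLR1 or TLR6 and binds bacterial lipoproteins. TLR4 binds lipopolysaccharide together with MD-2, the product of Ly96, and CD14 hands lipopolysaccharide to this complex and also helps TLR2. TLR5 binds flagellin, and TLR3 binds viral RNA duplexes inside endosomes. Fibroblasts are known to respond to several of these ligands.

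Promoter windows were looked up in a RefSeq table (build GRCm38.p6), each running from 250 bases before the annotated start to 50 bases after it. It held 7 windows for 5 of the 8 genes, none of them for Tlr4, Cd14 or Ly96. An NF-kB type motif (3 G, then 3 bases of any kind, T, 1 base of any kind and 2 C) was searched on both strands and occurs in 17.4% of the 32851 windows of the table, and the AP-1 type motif TGANTCA occurs in 7.81%. The windows of Tlr2, Tlr6 and Tlr5 are printed because Tlr2 had the largest mean log2 ratio of the tested members and Tlr6 and Tlr5 were measured beside it. Each is written in the direction of its gene, with matches to the NF-kB type motif in capitals.
Tlr2, chr3:83841559-83841858, minus strand: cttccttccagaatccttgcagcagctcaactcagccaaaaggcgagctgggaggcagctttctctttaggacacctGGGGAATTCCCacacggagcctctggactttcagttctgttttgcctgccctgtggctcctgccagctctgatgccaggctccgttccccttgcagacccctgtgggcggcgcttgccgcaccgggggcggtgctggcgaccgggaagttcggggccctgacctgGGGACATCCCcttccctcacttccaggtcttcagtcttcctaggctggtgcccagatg
Tlr6, chr5:64959999-64960298, minus strand: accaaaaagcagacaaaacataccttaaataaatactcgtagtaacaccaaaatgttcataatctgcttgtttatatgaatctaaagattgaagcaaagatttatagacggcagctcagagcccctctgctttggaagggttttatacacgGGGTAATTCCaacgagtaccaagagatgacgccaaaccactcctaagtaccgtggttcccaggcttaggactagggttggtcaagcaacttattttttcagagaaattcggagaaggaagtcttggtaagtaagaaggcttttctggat
Tlr5, chr1:182954538-182954837, plus strand: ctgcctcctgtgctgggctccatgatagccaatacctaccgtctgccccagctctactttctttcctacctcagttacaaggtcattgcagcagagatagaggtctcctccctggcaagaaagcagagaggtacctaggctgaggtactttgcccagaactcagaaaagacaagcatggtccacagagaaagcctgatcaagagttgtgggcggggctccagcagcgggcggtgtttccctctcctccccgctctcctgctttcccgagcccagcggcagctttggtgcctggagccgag
The Tlr2 window held 3 matches. GGGGAATTCC starts 173 bases before the start site and overlaps GGGAATTCCC, which starts 172 bases before it, and GGGACATCCC starts 8 bases before it. The Tlr6 window shown held 1 match, GGGTAATTCC, 99 bases before the start, and a second Tlr6 window held 0. The Tlr3 window held 1, GGGAGTTTCC, 211 bases before the start. The Tlr5 window and both Tlr1 windows held 0, and no member window held the AP-1 type motif. A match describes letters in these windows and no binding was measured.

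The arrays held 43790 spots each, with a median brightness of 124.3 to 137.7 in Cy5 and of 121.8 to 127.5 in Cy3. A probe entered the tests when the scanner called it well above background on both arrays of a treated time point or on all 6 arrays in untreated RNA, and 30583 probes did so with a value on all arrays. The call is a lenient one, given to as many as 14.3% of the 314 negative controls in Cy3 and 2.55% in Cy5 on one array. The 95th percentile of the negative controls was 75.1 to 85.5 in Cy5 and 110.6 to 120.5 in Cy3, and serves below as a second yardstick. No member was saturated. The direction of every ratio rests on the dyes in the labels. In the authors' value table the columns of each time-point pair are exchanged relative to the scanner files, and if the scanner files were the exchanged ones every sign below would turn. In the labelled direction the log2 ratio of IL-1-treated over untreated RNA was 4.66 to 6.25 for the chemokine gene Cxcl1 and 1.78 to 3.07 for Nfkbia, the NF-kB inhibitor gene, above 0 on 6 of 6 arrays for both.

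Tlr2, Tlr4 (probe A_51_P300806), Tlr5, Tlr6, Cd14 and Ly96 were well above background in both RNAs on 6 of 6 arrays, and these 6 probes were tested. Tlr2, Tlr4, Cd14 and Ly96 also exceeded the negative controls' 95th percentile in both dyes on every array. Tlr5 exceeded it on 6 arrays in Cy5 and 5 in Cy3, and Tlr6 on 6 in Cy5 and 2 in Cy3, so Tlr6 lies near the limit of detection in Cy3. Tlr1, both Tlr3 probes and the other Tlr4 probe (A_52_P24230) did not pass. The Tlr1 probe was well above background in treated RNA on 1 of 6 arrays and in untreated RNA on 5 of 6, and the Tlr3 probe A_51_P291906 in treated RNA on 0 and in untreated RNA on 1. The Tlr3 probe A_52_P85174 and the Tlr4 probe A_52_P24230 were not well above background in either RNA on any array.

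**Figure D1:**
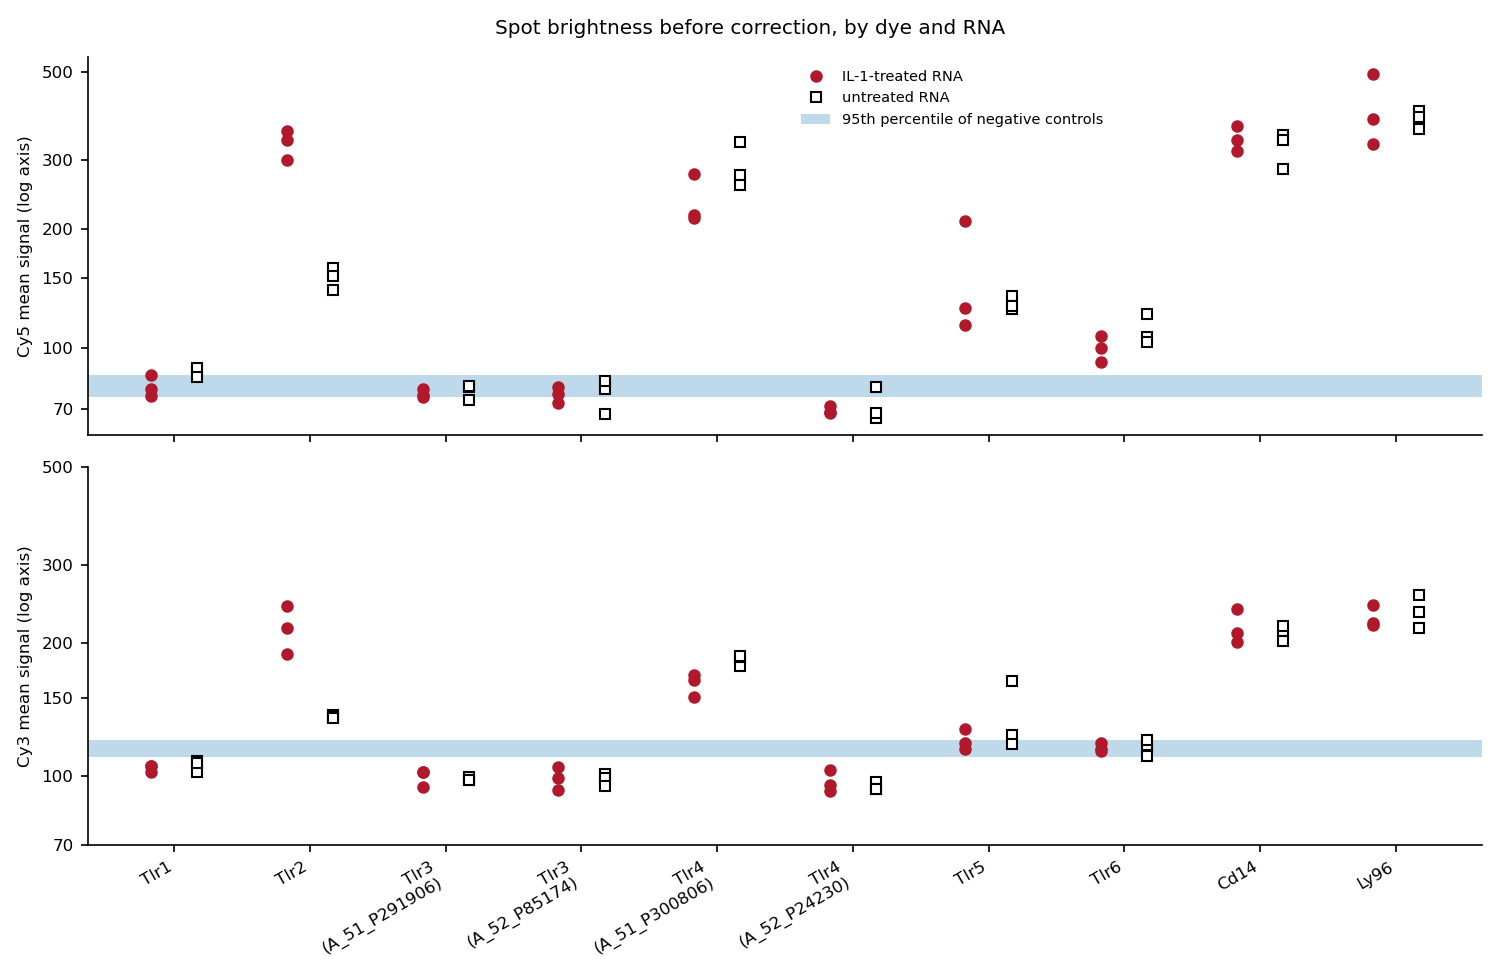
Mean spot signals of the 10 member probes before correction (log axis), Cy5 above and Cy3 below, with IL-1-treated RNA as filled circles left of untreated RNA as open squares, 3 arrays each. The band spans the 95th percentile of the negative controls over the 6 arrays. Both Tlr3 probes and the second Tlr4 probe lie in or below the band, Tlr1 lies at the band in Cy5 and below it in Cy3, and the treated and untreated points of Tlr2 are apart in both dyes.

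Probe positions are as the scanner files give them, in a build not given in the sources used here, and are not comparable with the windows above. The Tlr2 probe lies at chr3:83572366-83572425. The Tlr4 probe with signal lies at chr4:65933884-65933943, and the one without lies 86832 bases away, against a length of 19031 bases for Tlr4 in RefSeq. The silent probe is also filed under a cDNA clone and not under the RefSeq transcript. The 2 Tlr3 probes lie 280 bases apart. The Ly96 probe spans 3273 bases and the other 9 probes span 60, so that the Ly96 probe crosses a splice junction in those coordinates. Tlr1 and Tlr6 are neighbours on chromosome 5 with 0 protein-coding genes between them. They are close paralogs, and cross-hybridisation between their probes was not tested, since the probe sequences were not used here.

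Tlr2, the receptor for bacterial lipoproteins, had the largest mean log2 ratio of the 6 tested members. In Cy5 its mean spot signals were 354, 336 and 300 in IL-1-treated RNA at 1, 2 and 4 h, against 159, 152 and 140 in untreated RNA on the partner arrays. In Cy3 they were 216, 242 and 189 in treated RNA, against 137, 136 and 135 in untreated RNA. Treated and untreated signals did not overlap in either dye. These signals are uncorrected, and the share of all tested probes without overlap was not counted. After background correction and normalization the log2 ratios in the Cy5 and Cy3 orientation were 1.05 and 1.15 after 1 h of IL-1, 1.07 and 1.39 after 2 h, and 0.88 and 0.97 after 4 h. As folds of the time-point means these are 2.15, 2.34 and 1.90. The scanner software's own p-value for each Tlr2 spot, from an error model within the array and no test of replicates, was 1.44e-08 to 4.74e-05.

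Each SE here and below is limma's moderated SE, from a variance drawn toward that of all tested probes. It is not the SE of the 3 values alone. The mean response of Tlr2 over the 3 time points was a log2 ratio of 1.09 ± 0.054 (SE, n = 3), 2.12-fold, with a limma adjusted p of 0.000425, and it was above 0 on 6 of 6 arrays. In the labelled direction it ranked 34 from the highest mean log2 ratio among the 30583 tested probes, which with the signs turned would be 34 from the lowest. The size rule, a log2 ratio of at least 1 in both orientations, was met by Tlr2 at 1 h, where 0.17% of tested probes met it, and at 2 h, where 0.134% did. It was not met at 4 h, where 0.111% of tested probes met it. At 1 h 0 members met the size rule downward, beside 0.00654% of tested probes, and at 2 and 4 h no tested probe did (0%). The slope of Tlr2 per doubling of time was -0.088 ± 0.055 (SE) on the log2 scale and did not pass the test (limma adjusted p = 0.654). The mean was 3.23-fold in the scanner's processed signals, which differ in both background correction and normalization, and 1.86-fold with no background correction.

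**Figure D2:**
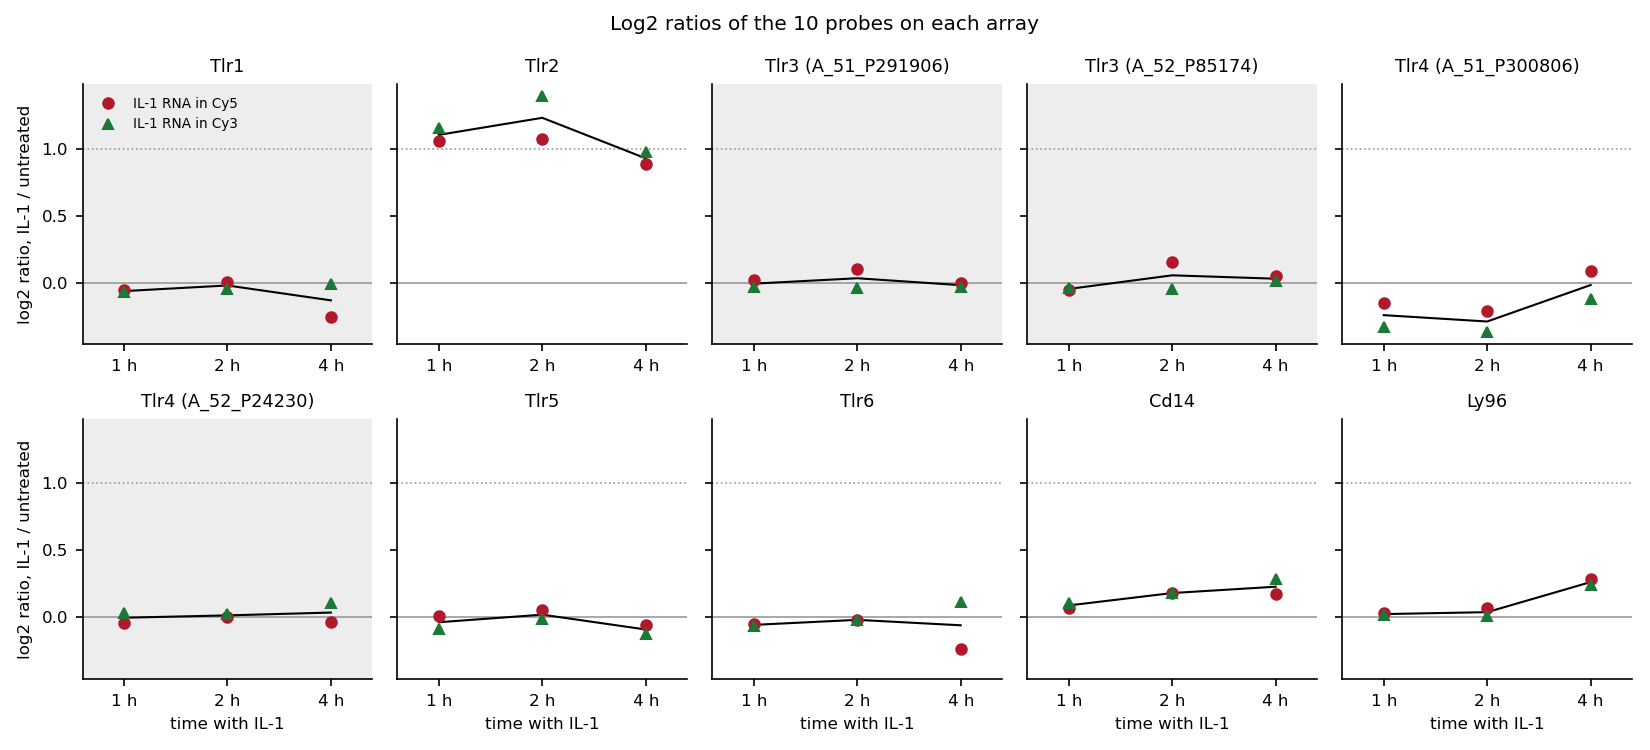
Log2 ratio of IL-1-treated over untreated RNA at 1, 2 and 4 h for each member probe, with the treated RNA in Cy5 as circles, in Cy3 as triangles, and the mean of both orientations as a line. Grey panels are the 4 probes that did not pass the background filter, and the dotted line marks the log2 ratio of 1 in the size rule. Tlr2 is near or above the dotted line throughout and the other probes lie between -0.37 and 0.29.

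Tlr6 and Tlr1 encode the partners of TLR2, and Tlr6 did not pass the test. Its signals in Cy5 were 107, 92.1 and 100.2 in IL-1-treated RNA at 1, 2 and 4 h, against 107, 122 and 103 in untreated RNA. In Cy3 they were 114, 119 and 115 in treated RNA, against 117, 111 and 120.4 in untreated RNA, and the groups overlapped in both dyes. The log2 ratios of Tlr6 in the Cy5 and Cy3 orientation were -0.048 and -0.062 after 1 h, -0.017 and -0.019 after 2 h, and -0.23 and 0.12 after 4 h, so that the orientations disagreed in sign at 4 h. Its mean was -0.044 ± 0.023 (SE, n = 3; limma adjusted p = 0.248).

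Tlr1 was not tested. Its Cy5 signals were 85.3, 78.5 and 75.5 in IL-1-treated RNA at 1, 2 and 4 h and 88.5, 89.0 and 84.5 in untreated RNA. They exceeded the negative controls' 95th percentile of the same array on 6 of 6 arrays, and the Cy3 signals never did. The log2 ratios of Tlr1 were -0.057 and -0.069 after 1 h, 0.0049 and -0.047 after 2 h, and -0.25 and -0.010 after 4 h. At 4 h treated RNA was not well above background on either array and untreated RNA was so on both, with 1 of the 2 arrays giving a ratio near 0, and no fold is given.

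Cd14 encodes the lipopolysaccharide-binding co-receptor. Its Cy5 signals were 337, 316 and 366 in IL-1-treated RNA at 1, 2 and 4 h, against 347, 285 and 337 in untreated RNA. Its Cy3 signals were 211, 201 and 239 in treated RNA, against 213, 202 and 218 in untreated RNA. These uncorrected signals overlapped in both dyes, and the difference appears in the ratios within arrays. The log2 ratios were 0.073 and 0.11 after 1 h, 0.18 and 0.18 after 2 h, and 0.18 and 0.28 after 4 h in the Cy5 and Cy3 orientation, above 0 on 6 of 6 arrays.

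Cd14 rose by a mean log2 ratio of 0.17 ± 0.032 (SE, n = 3), 1.12-fold, limma adjusted p = 0.0147, and in the labelled direction 4.54% of tested probes had a mean at or above it, which with the signs turned would be the share at or below it. The scanner's p-values for the single Cd14 spots were 0.0542 to 0.883. The call was lost in the scanner's processed signals (log2 ratio 0.22, limma adjusted p = 0.0802), with each array centred on its median in place of loess (0.10, adjusted p = 0.0755) and without the 2 h sample (0.16, adjusted p = 0.10). The time-point means were 0.090, 0.18 and 0.23 at 1, 2 and 4 h, and the slope of 0.070 per doubling of time did not pass (limma adjusted p = 0.463).

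Ly96 encodes MD-2, the lipopolysaccharide-binding subunit of the TLR4 complex. Its Cy5 signals were 380, 330 and 494 in IL-1-treated RNA at 1, 2 and 4 h, against 398, 384 and 358 in untreated RNA. Its Cy3 signals were 220, 222 and 243 in treated RNA, against 235, 217 and 257 in untreated RNA. The log2 ratios were 0.035 and 0.016 after 1 h, 0.069 and 0.010 after 2 h, and 0.29 and 0.24 after 4 h. The 2 arrays of 4 h thus gave 1.2-fold together, and the earlier arrays lay near 0. Neither the mean of 0.11 ± 0.049 (SE, n = 3; limma adjusted p = 0.169) nor the slope of 0.12 per doubling of time (limma adjusted p = 0.312) passed the test. At 1 and 2 h the sign of Ly96 turned under median centring, to -0.054 and -0.065.

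Tlr4, the lipopolysaccharide receptor, had Cy5 signals of 217, 214 and 276 in IL-1-treated RNA at 1, 2 and 4 h, against 274, 332 and 258 in untreated RNA. Its Cy3 signals were 151, 169 and 165 in treated RNA, against 177, 186 and 186 in untreated RNA. Treated and untreated signals overlapped in Cy5 through the treated 4 h value and did not overlap in Cy3. The share of all tested probes without overlap in Cy3 was not counted. The log2 ratios in the Cy5 and Cy3 orientation were -0.15 and -0.33 after 1 h, -0.21 and -0.37 after 2 h, and 0.086 and -0.12 after 4 h, below 0 on 5 of 6 arrays. The Cy3 orientation read lower than the Cy5 orientation at all 3 times, by 0.16 to 0.21. Over all tested probes and times an orientation lay a median of 0.062 from the mean of the pair, and for Tlr4 it lay 0.082 to 0.10 from it.

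The mean response of Tlr4 was -0.18 ± 0.052 (SE, n = 3), 0.881-fold, and missed the threshold with a limma adjusted p of 0.0521. With the 6 arrays unaveraged and the replicate number (dye orientation) as a block, the same value passed, with a limma adjusted p of 0.0138, in a fit that counts the swapped arrays as separate samples. It also passed with median centring (-0.24, limma adjusted p = 0.0186), with no background correction, with no filter on dim probes, without replicate 1 (-0.28, limma adjusted p = 0.00974) and without the 4 h sample (-0.27, adjusted p = 0.00553). Without replicate 2 the mean was -0.091 (limma adjusted p = 0.232). The second Tlr4 probe gave log2 ratios of -0.039 to 0.11 with every signal below the negative controls' 95th percentile, and so gives no second reading of the gene.

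**Figure D3:**
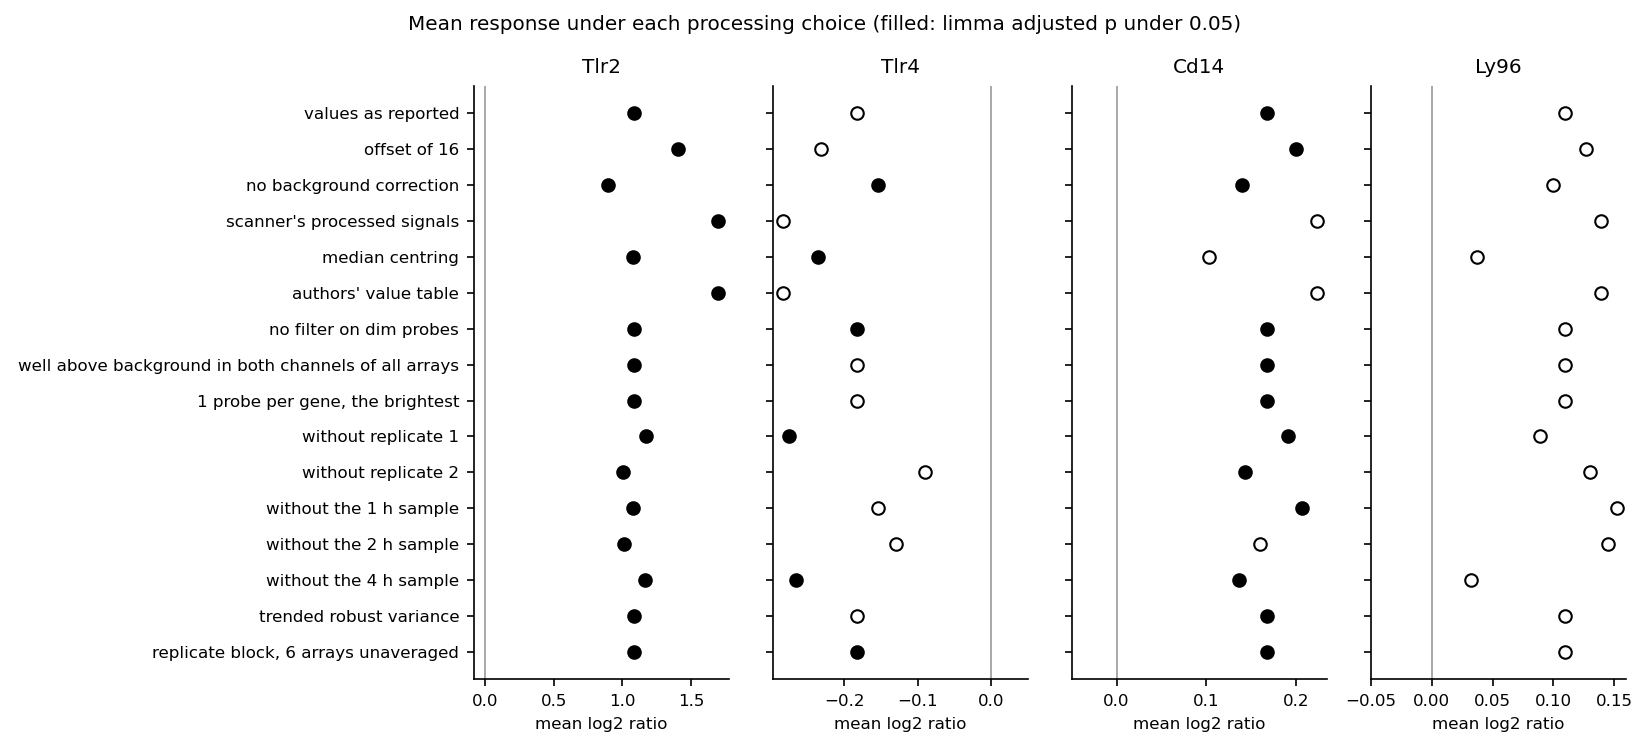
Mean log2 ratio of IL-1-treated over untreated RNA for Tlr2, Tlr4, Cd14 and Ly96 under the reported processing and 15 alternatives, with a scale of its own in each panel. Filled points passed an adjusted p of 0.05 in limma. Tlr2 passed in all 15 alternatives, Cd14 in 11, Tlr4 in 6 and Ly96 in 0. The scanner's processed signals and the authors' value table gave equal means, so they are not independent alternatives.

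Tlr5, the flagellin receptor, had Cy5 signals of 126, 209.5 and 114 in IL-1-treated RNA at 1, 2 and 4 h, against 125, 136 and 128 in untreated RNA. Its Cy3 signals were 119, 128 and 115 in treated RNA, against 124, 164 and 118 in untreated RNA. Both RNAs were high together on the 2 h array with treated RNA in Cy5, so that its ratio stayed near 0. The log2 ratios were 0.012 and -0.083 after 1 h, 0.054 and -0.012 after 2 h, and -0.054 and -0.13 after 4 h, with a mean of -0.035 ± 0.029 (SE, n = 3; limma adjusted p = 0.454).

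Tlr3, the endosomal receptor for viral RNA, had no measured response. Over both of its probes the Cy5 signals were 72.5 to 79.3 in IL-1-treated RNA, against 67.9 to 82.6 in untreated RNA, with the highest percentile of the negative controls at 85.5. Against the percentile of the same array, each probe exceeded it on 2 of 6 arrays in Cy5 and on 0 in Cy3. The log2 ratios of Tlr3 ran from -0.052 to 0.15. A fold is not given because treated RNA was well above background on 0 arrays and untreated RNA on 1. Tlr3 transcript was thus not reliably detected by these probes, which does not show that it was absent.

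Of the 6 tested member probes, 2 rose in the mean response (Tlr2 and Cd14) and 0 fell, while 10.5% of all tested probes rose and 11.4% fell. Tlr4, with a mean below 0, was also past an unadjusted p of 0.05 in limma. The median of the members' mean log2 ratios was 0.038, beside 0.0021 over all tested probes. For the slope over time 0 members rose and 0 fell, beside 0.196% and 0.242% of all tested probes. Tlr4, Cd14 and Ly96 had slopes above 0 past an unadjusted p of 0.05 in limma, with adjusted p of 0.312 to 0.463. Shares of all tested probes past an unadjusted p are not given for the mean or the slope. The unadjusted readings therefore have no share to stand beside and are no result about the members. With 1 residual degree of freedom the slope test separates few probes from the others. In RNA from a whole culture, a change in the number of cells that carry a transcript and a change in the RNA per cell cannot be told apart.

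The rest of the pathway was read from lists chosen with earlier results of these data known, 1 probe standing for a gene. Myd88, the adaptor that Toll-like and IL-1 receptors share, rose by a log2 ratio of 0.24 ± 0.024 (SE, n = 3; limma adjusted p = 0.00206), and Tirap, which links MyD88 to TLR2 and TLR4, by 0.10 ± 0.027 (adjusted p = 0.0446). They are 2 of the 4 measured TIR-domain adaptors and 0 of those fell, where 10.5% of all tested probes rose and 11.4% fell. The call of Tirap was lost in 8 of 15 alternatives, median centring among them (0.032, limma adjusted p = 0.569). Of 10 measured accessory and trafficking proteins, such as Lbp, Cd36 and Unc93b1, 0 rose and 0 fell, with a median log2 ratio of 0.017 beside 0.0021 over all tested probes. Tlr9, the only other Toll-like receptor with a measured probe, stood at 0.072 ± 0.027 (SE, n = 3; limma adjusted p = 0.109), and Tlr7 and Tlr8 did not pass the background filter.

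Among 16 measured kinases and ubiquitin ligases of the pathway, 4 rose and 0 fell, beside 10.5% and 11.4% of all tested probes, and the median log2 ratio was 0.026. Ripk2, a kinase of innate immune receptors, rose by 0.79 ± 0.11 and Traf3, a ubiquitin ligase, by 0.48 ± 0.023 (SE, n = 3; limma adjusted p = 0.00583 and 0.000407). Ikbke and Ripk1, both kinases, rose by 0.11 each, and their calls were lost in 4 and 6 of 15 alternatives. The other 12 did not pass the test, with mean log2 ratios from -0.16 (Irak2, limma adjusted p = 0.0509) to 0.10 (Ikbkb, adjusted p = 0.0634). The calls of Ripk2 were lost in 3 of 15 alternatives, and those of Traf3 and Myd88 in 0. Ikbke is dim and exceeded the negative controls' 95th percentile in 6 of 12 readings. Its mean was 0.077 with no background correction and 0.39 in the processed signals.

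Of 8 measured inhibitors of Toll signalling, 3 rose and 0 fell, beside 10.5% and 11.4% of all tested probes, and the median log2 ratio was 0.13. Tnfaip3, which encodes the ubiquitin-editing enzyme A20, had log2 ratios of 2.36, 1.07 and 0.35 at 1, 2 and 4 h, with a mean of 1.26 ± 0.33 (SE, n = 3; limma adjusted p = 0.0410) and a falling slope of -1.0 per doubling of time (adjusted p = 0.00383). Il1rl1, a receptor of the IL-1 family, rose by 0.67 ± 0.067 (SE, n = 3, limma adjusted p = 0.00216), and Tollip, another inhibitor of the list, by 0.18 ± 0.025 (adjusted p = 0.00608). Of 9 measured genes whose products have been described as endogenous ligands of Toll-like receptors, 4 rose and 1 fell, beside the same 10.5% and 11.4%, with a median of 0.13. Saa3, an acute-phase protein, rose by 0.51, and the matrix genes Dcn, Bgn and Fn1 by 0.46, 0.37 and 0.35, while Hmgb1, a chromatin protein that acts as an alarm signal outside cells, fell by 0.14 on the log2 scale. Saa3 exceeded the negative controls' 95th percentile in 5 of 12 readings, and its mean was 2.22 in the processed signals, 0.90 with an offset of 16 and 0.31 without the 4 h sample. Bgn stood at 0.57 without replicate 1, 0.16 without replicate 2 and 0.21 with median centring, which also gave 0.18 for Fn1 and 0.12 for Myd88. Dcn stood at 0.29 without the 4 h sample and Tnfaip3 at 0.71 without the 1 h sample. Bgn and Fn1 kept the call in 15 of 15 alternatives, Tollip in 11, Dcn in 10, Tnfaip3 in 9 and Saa3 in 10 of 14.

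**Figure D4:**
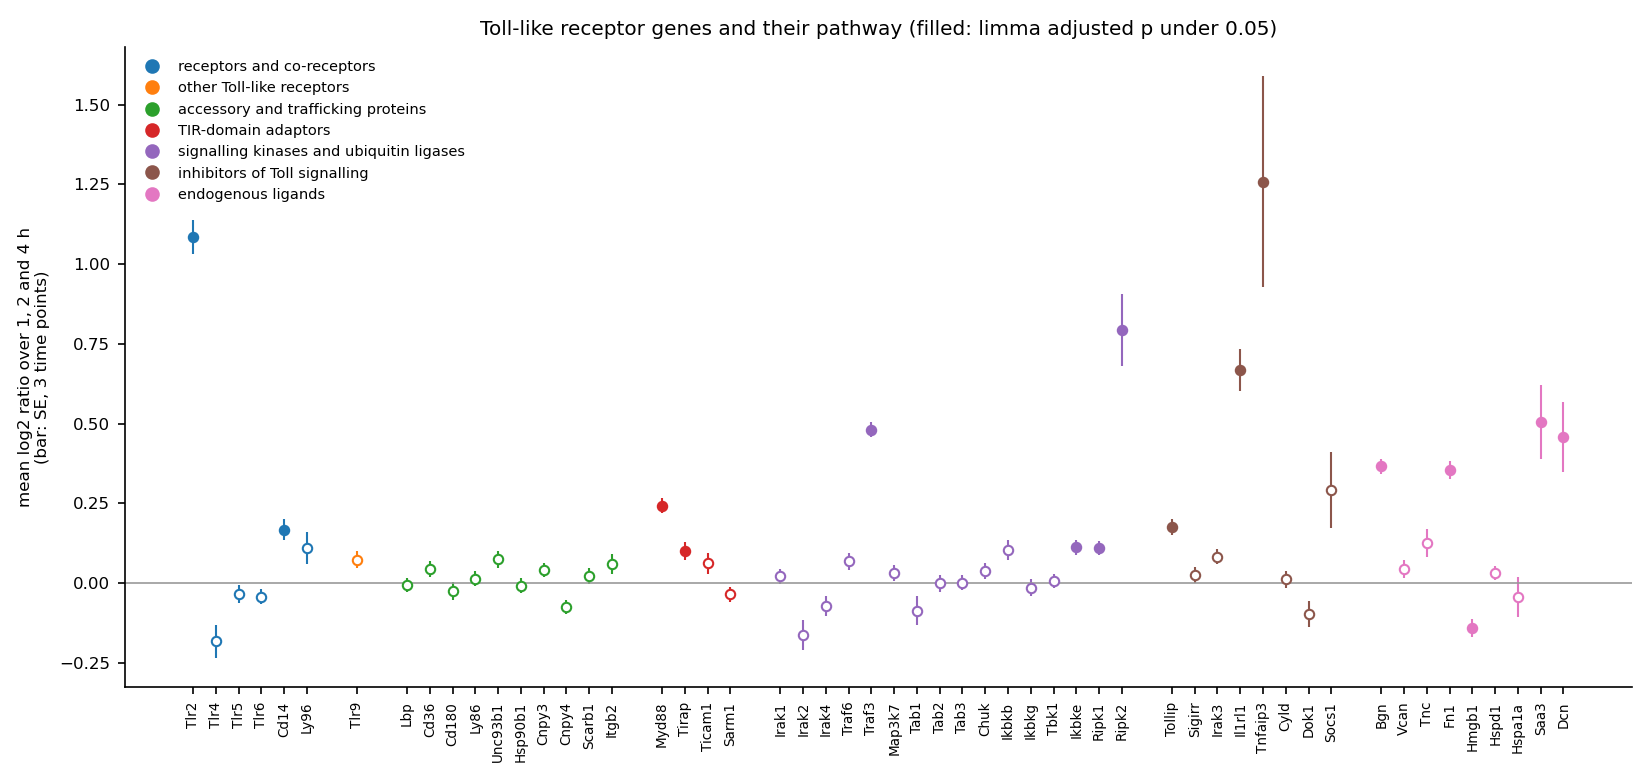
Mean log2 ratio, IL-1-treated over untreated RNA, over 1, 2 and 4 h. Points are the 6 tested member probes and the measured genes of 6 pathway lists, with bars for limma's moderated SE (n = 3 time points). Filled points passed an adjusted p of 0.05 in limma. Tlr2 (1.09) and Tnfaip3 (1.26) are the points above 1, and the accessory proteins lie near 0.

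Genes with ratios most like those of Tlr2 were found by the Euclidean distance over its 6 array log2 ratios, among 17809 genes with a kept probe. The nearest was the chemokine gene Cx3cl1 (distance 0.337), followed by Nfkb2, an NF-kB subunit gene (0.384), Ptx3, which encodes a soluble pattern-recognition protein (0.406), Cebpb, a transcription factor gene (0.407), and Vcam1, an adhesion molecule gene (0.611). At 1, 2 and 4 h the log2 ratios were 1.21, 1.39 and 0.99 for Cx3cl1, against 1.10, 1.23 and 0.93 for Tlr2. Untreated RNA is on every array, and whether it is 1 extract is not stated; the order is a description. With median centring 0 of these 5 genes were again among the nearest 5, and in the scanner's processed signals 1 was.

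The fibroblast label was checked with markers. All 9 fibroblast markers, among them Col1a1, Pdgfra and Vim, were measured and exceeded the negative controls' 95th percentile in every reading. Of these 1 rose (Dcn) and 1 fell (Col3a1, -0.25), where 10.5% of all tested probes rose and 11.4% fell. Col1a1, Col1a2 and Vim were saturated on all 6 arrays. Macrophages and other leukocytes express Tlr2 and Cd14 strongly, so their markers stand beside those results. Of 10 such markers 9 were measured, and 3 rose (Csf1r 0.13, Fcer1g 0.11, Lyz2 0.086) and 1 fell (Tyrobp, by 0.12). The same 10.5% and 11.4% of all tested probes stand beside these counts. With median centring or in the scanner's processed signals 0 of these markers rose, and the shares of all tested probes there are not given. Their summed normalized signal was 4455 to 4833 in IL-1-treated RNA and 4231 to 4571 in untreated RNA over the 6 arrays. These ranges overlap, and both ends are higher in treated RNA. The sums were not compared within arrays. Ptprc, the pan-leukocyte gene, exceeded the negative controls' 95th percentile in 7 of 12 readings and Spi1 in 6 of 12, and Itgam did not pass the background filter. The part of leukocytes in the Tlr2 and Cd14 results was not tested. Of the endothelial, mast cell and T cell markers 3 were measured in each list and 0 rose or fell. Of 3 measured keratinocyte markers Krt10 fell (-0.20). These counts also stand beside the 10.5% and 11.4% of all tested probes.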

How the data were processed

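The scanner software (Agilent Feature Extraction 7.5.1) wrote each spot's mean and background intensity before correction and its processed intensity, per the file headers. It also wrote the log10 ratio and the p-value of that ratio, per the file headers. Log2 ratios are what the authors deposited as their value table. Within 0.001, 100% of spots in a column equal the processed ratio of the partner array of that time point, and column medians were -0.036 to 0.035. Scale and lack of centring are thereby settled, and the direction rests on the dye labels.

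Signals were corrected by normexp (offset 50) and normalized by loess within each array in limma 3.58.1 (R 4.3.3), with controls at weight 0 and outlier spots dropped. Spots of a probe were averaged, ratios turned to treated over untreated, and swapped arrays averaged. The summed marker signals and the log2 signals of single RNAs had a further step between arrays (Aquantile in limma). Outlier spots were not dropped for them. Of 41174 non-control probes 30640 passed the background filter and 57 of these lacked a value. The mean response and the slope on log2 hours left 2 and 1 residual degrees of freedom in lmFit. Variances were then moderated over all tested probes in eBayes (two-sided tests), which adds prior degrees of freedom to the residual ones. P-values were adjusted by Benjamini-Hochberg over 30583 probes at 0.05. Single times were judged by size. Untreated RNA is the reference on every array, and whether it is 1 extract is not stated; if it is, its own spread is left out of the p-values. The number of arrays limits the precision. The fits were also run on simulated data, whose settings and results are not given here.

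Members and lists were chosen with earlier results of these data known. All probes of the 8 genes are described. From a pathway list at most 4 genes past the threshold are named, those with the largest mean log2 ratio of the brightest probe, and so are the 5 genes nearest to the most changed member; other genes were named after their values were seen. Per the labels the replicate number is the dye orientation, and same-numbered arrays deviated together (correlations 0.843, 0.768 and 0.765). The labels give no pairing of samples by this number, and dye and any other source of the shared deviation cannot be told apart.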

Additional observations from a re-analysis of the deposited data

Results flagged for a closer look

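The log2 signals of this section were also normalized between arrays. On the 2 h array of replicate 2 the untreated log2 signal of Tlr4 was 7.86. It lay apart from the other 5 untreated readings, which were between 7.42 and 7.56. The treated log2 signal of Tlr4 on that array was 7.49, within the 7.22 to 7.61 of the other arrays. On the 2 h array of replicate 1 the untreated log2 signal of Tlr5 was 7.07, apart from the other readings at 6.53 to 6.72. The treated signal of Tlr5 on that array was also high, 7.13 against 6.44 to 6.70 on the others. Each was marked because its gap to the nearest reading exceeded the 95% critical value of Dixon's test, which chance exceeds in about 1 of 20 groups.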

How the results depend on the processing

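Across 15 alternatives the mean response of Tlr2 was 0.89 to 1.69 (limma adjusted p 5.55e-06 to 0.0395), that of Cd14 0.10 to 0.22 (0.00230 to 0.10), that of Tlr4 -0.28 to -0.091 (0.00553 to 0.251) and that of Ly96 0.033 to 0.15 (0.0801 to 0.683). The authors' value table and the processed signals gave equal means for these probes. They are counted as separate alternatives here and above but are not independent. The number of rising probes was 1 in place of 2 in the value table and in the processed signals. It was also 1 with median centring and without the 2 h sample. The number of falling probes was 1 in place of 0, Tlr4, with median centring, no background correction, no filter, the replicate block and without the 4 h sample, and 0 to 1 when replicate 1 or 2 was left out. The size rule counted 0 in place of 1 at 1 h and at 2 h with median centring or no background correction, and 1 in place of 0 at 4 h in the value table, the processed signals and with an offset of 16. With replicate 1 or 2 left out the Tlr5 mean was -0.073 or 0.0042, the Tlr6 mean 0.012 or -0.10 and the Tlr6 slope 0.090 or -0.093, so that a sign turned in each. The sign of the Tlr6 slope also turned in the value table and the processed signals (0.017) and with the offset of 16 (0.0013). None of these values passed the threshold. The causes were not tested. In the replicate block no other member's call changed. Over the alternatives the number rising was 1 to 2 of the adaptors, 1 to 7 of the kinases and ligases, 1 to 4 of the inhibitors, 2 to 5 of the endogenous ligands and 0 to 2 of the accessory proteins, and the number falling was 0, 0 to 4, 0 to 1, 0 to 2 and 0 to 2 in that order of lists. The most falling kinases and ligases (4) came with median centring. The shares of all tested probes rising or falling under the alternatives are not given, and 10.5% and 11.4% belong to the reported processing. Whether the list counts moved with those shares was not tested. The median of all probes lay between -0.021 and 0.014. A block for slide or scan was not run because each slide held 1 array, and a slope without a time point was not run because no residual degree of freedom is left. Dim signals limit Tlr1, Tlr3 and Tlr6.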
